A study of Mus musculus with 11 samples.

Results

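The genes described are 10 transcription factors and regulators that are known from basal epithelium or from mesenchymal-type programmes, namely Trp63, Snai1, Snai2, Zeb1, Zeb2, Twist1, Twist2, Meox1, Id4 and Dmrta1. They were listed by symbol and found in the count table by their Entrez gene number, and all 10 had a row among the 27179 gene identifiers. Bulk RNA-seq had been done on mammary epithelium from C57BL/6 mice aged 5 weeks that carry an E-cadherin-GFP reporter, in which terminal end buds (TEBs, the growing tips of the pubertal duct) and ducts were dissected apart. Epithelial cells (Lin- CD29+ CD24+) were then sorted by the reporter into basal (Ecad-GFP lo) and luminal (Ecad-GFP hi) fractions, so the groups were basal duct (3 libraries), basal TEB (3), luminal duct (2) and luminal TEB (3). Every group carried the reporter, no group was treated, and at least 2 mice were pooled in each library. Because each library is bulk RNA, fewer cells of a type and less RNA per cell cannot be told apart.

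p63, the product of Trp63, is the p53-family factor that maintains the basal layer of stratified and glandular epithelia, and its targets include basal keratins, laminin chains and hemidesmosome genes. The SNAIL factors (Snai1 and Snai2, the latter also called Slug) and the ZEB factors (Zeb1 and Zeb2) are zinc finger repressors that bind E-box DNA and lower epithelial junction genes such as Cdh1, which encodes E-cadherin. TWIST proteins are basic helix-loop-helix factors of mesenchyme, ID proteins such as Id4 bind such factors and keep them off DNA, Meox1 is a homeobox factor of the somites, and Dmrta1 belongs to the DM domain family. In the mammary gland, p63, Slug and Id4 are known from the basal layer.

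The E-box bound by SNAIL and ZEB factors reads CACCTG, or CAGGTG on the other strand. RefSeq promoters of GRCm38.p6, which run from 250 bases before to 50 bases after a gene's start, were at hand for 6 of the 10 genes (9 promoters, since Zeb2 has 4), and not for Trp63, Snai2, Zeb1 and Meox1. Of these 9 promoters, 1 held the box, that of Snai1, and 20.2% of the 32851 promoters in the table held it on either strand. The Snai1 promoter (chr2:167537945-167538244, plus strand) is shown with that box in capitals, 126 bases before the start, beside the promoter of Epcam (chr17:87635729-87636028, plus strand), an epithelial adhesion gene from the list of genes repressed by these factors, which has a box 187 bases and another 19 bases before the start. The promoter of Krt5, a basal keratin gene, also has a box, 128 bases before the start, and that of Krt14, another basal keratin gene, has none. From the same list as Epcam, every promoter at hand of Cldn3, Cldn4, Ocln and Crb3 has at least 1 box. Cldn7 has a promoter with 2 boxes and another with 0, and that of Ovol2 has none. Promoters of Cdh1, Esrp1, Esrp2, Grhl2 and Ovol1 were not at hand. A match is only a string of letters in the window, and binding was not measured.
Snai1 promoter: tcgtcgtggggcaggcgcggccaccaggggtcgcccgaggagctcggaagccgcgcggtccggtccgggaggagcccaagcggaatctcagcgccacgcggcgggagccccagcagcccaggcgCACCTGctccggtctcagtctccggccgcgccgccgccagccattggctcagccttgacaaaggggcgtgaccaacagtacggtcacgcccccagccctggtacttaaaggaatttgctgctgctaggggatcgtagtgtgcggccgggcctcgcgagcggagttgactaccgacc
Epcam promoter: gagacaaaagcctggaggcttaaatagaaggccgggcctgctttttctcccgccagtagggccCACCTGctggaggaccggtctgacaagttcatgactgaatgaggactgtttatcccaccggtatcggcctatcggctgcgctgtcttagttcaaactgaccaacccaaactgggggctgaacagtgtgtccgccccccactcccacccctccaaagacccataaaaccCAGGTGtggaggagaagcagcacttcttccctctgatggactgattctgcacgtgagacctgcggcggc

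The libraries held between 27989137 and 49221436 counts, and mitochondrial genes took from 4.34% to 37.5% of them, with the highest shares in basal TEB 1 and luminal duct 3. Each of the 8 basal markers (such as Krt5, Krt14 and Acta2) was higher in basal cells in ducts and in TEBs, and each of the 8 luminal markers (such as Krt8 and Elf5) was lower, by edgeR's quasi-likelihood test at a Benjamini-Hochberg FDR below 0.05, the rule for a call throughout. Levels are counts-per-million (CPM) after TMM scaling, and RPKM, which also divides by gene length, is used to compare one gene with another. All 10 genes passed the filter on low counts. Libraries of a group differed widely, and the common biological coefficient of variation stood at 0.704.

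Basal cells differed from luminal cells mainly in 4 of the 10 genes, Trp63, Id4, Snai2 and Meox1, which were called higher in basal cells in both structures. In ducts 5 of the 10 genes were called, the fifth being Snai1, against 22.3% of all 17370 genes tested. All 5 were higher in basal cells, against 12.6% of genes called in that direction. In TEBs 4 of the 10 were called and all 4 were higher in basal cells, against 25.1% of genes called in either direction and 13.2% called higher in basal cells. The members' median log2 fold change was 6.33 in ducts and 5.95 in TEBs, beside medians over all genes of 0.08 and 0.04. The duct median includes fitted values of genes with no luminal duct counts. That of TEBs includes Meox1, with 1 luminal TEB count. In each structure 6 of the 10 genes had basal libraries that all lay above the luminal ones, against 46.0% of genes whose groups did not overlap in ducts and 49.8% in TEBs.

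By RPKM, Id4 and then Trp63 stood highest in basal cells of both structures, and Snai2 and Meox1 exchanged places. In basal duct Id4 stood at 187 ± 18.5 RPKM (SD, n = 3), Trp63 at 77.3 ± 1.40, Snai2 at 30.1 ± 6.19 and Meox1 at 16.1 ± 6.82, and the libraries of neighbours in that order did not overlap except those of Snai2 and Meox1. In basal TEB the values were 194 ± 29.7 RPKM (SD, n = 3) for Id4, 58.9 ± 7.08 for Trp63, 43.9 ± 7.53 for Meox1 and 33.6 ± 2.73 for Snai2, with Meox1 above Snai2 in all 3 libraries and the highest Meox1 library just above the lowest Trp63 library. The other 6 genes had means of at most 2.22 RPKM in either basal group. So the SNAIL family was represented in basal cells chiefly by Snai2.

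**Figure D1:**
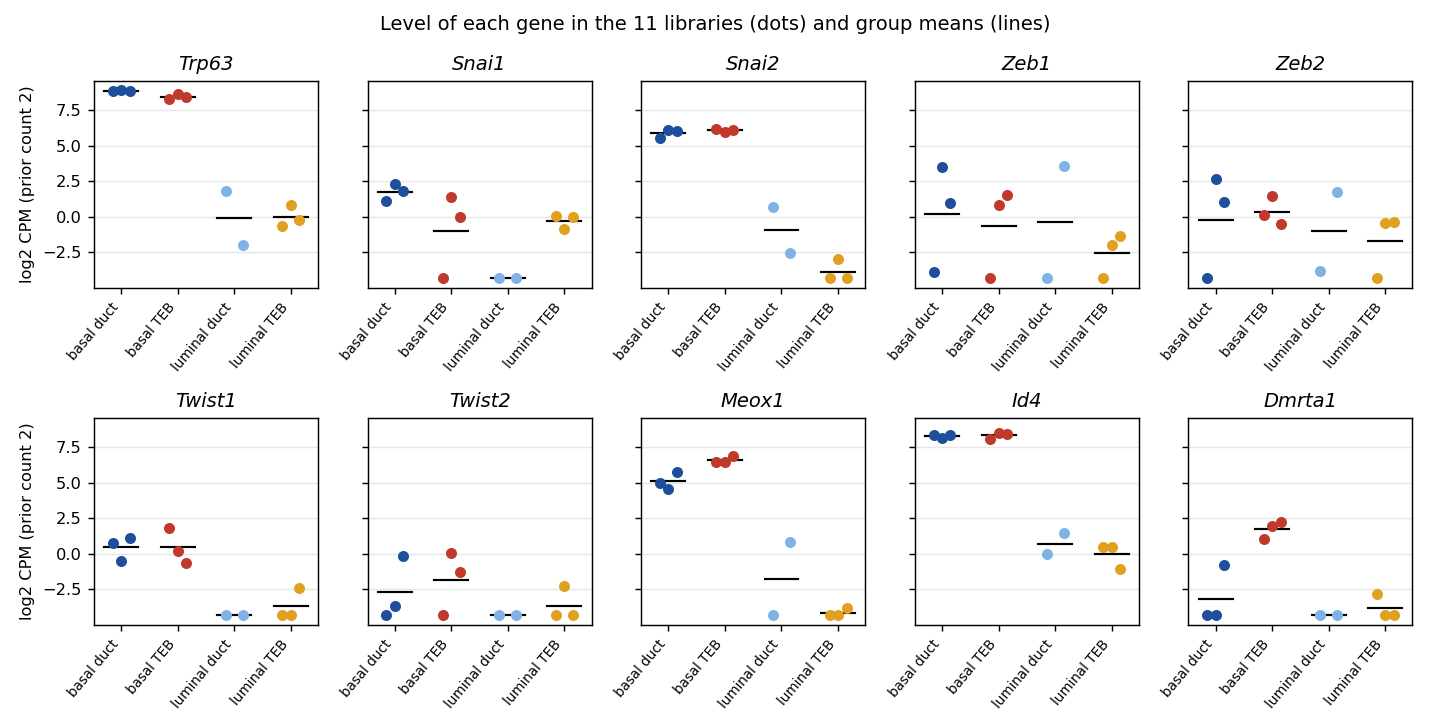
Level of each of the 10 genes in log2 CPM with a prior count of 2 (y axis) in the 4 groups (x axis), with a dot for each of the 11 libraries and a line at each group mean. Trp63, Id4, Snai2 and Meox1 separate basal from luminal libraries, and the lowest dots are libraries with no count.

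Trp63 (Entrez gene 22061, chromosome 16 of GRCm38, 25683763 to 25892088) had 461, 478 and 466 CPM in basal duct and 318, 403 and 349 CPM in basal TEB. The luminal duct libraries had 3.44 and 0.206 CPM and the luminal TEB libraries 0.583, 1.70 and 0.809 CPM. Every basal library lay above every luminal one. The log2 fold change of Trp63 between basal and luminal cells was 7.92 (SE 0.87, FDR 4.93e-05, edgeR) in ducts and 8.42 (SE 0.74, FDR 5.96e-06, edgeR) in TEBs. Counts per gene do not separate the long (TA) from the short (delta N) p63 isoforms.

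In basal cells all 3 TEB libraries had less Trp63 than all 3 duct libraries, yet the difference was not called. The log2 fold change was -0.39 (SE 0.53, 95% interval -1.54 to 0.76, FDR 0.793, edgeR). Of all genes tested, 20.8% had basal TEB and basal duct libraries that did not overlap. In luminal cells the TEB and duct libraries overlapped.

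The list of 18 known p63 target genes was chosen from general knowledge. In ducts 15 of the 18 were called higher in basal cells, against 12.6% of all genes. Only Fgfr2, a fibroblast growth factor receptor, was called lower, against 9.71% of all genes. The list had a median log2 fold change of 2.63, beside 0.08 over all genes. The smallest FDRs were those of laminin chains and a keratin, with Lamb3 at 4.74 (SE 0.24), Lama3 at 5.78 (SE 0.48) and Krt14 at 7.19 (SE 0.64) on the log2 scale. In TEBs 12 of the 18 were called higher in basal cells, against 13.2% of all genes. Another 3 were called lower (Fgfr2, and the hemidesmosome genes Dst and Itgb4), against 11.8% of all genes. The median was 2.30, beside 0.04 over all genes. Between basal TEB and basal duct cells, 6 of the 18 fell in TEBs and 0 rose, with a median of -0.30 beside -0.03 over all genes, while 1.32% of all genes were called in that comparison.

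The 6 genes that fell in basal TEB cells were Dst, Krt14, Itgb4, Krt5, Lamb3 and Jag1, a Notch ligand. Krt14 went from a mean of 2419 CPM in basal duct to 330.2 CPM in basal TEB (log2 fold change -2.87, SE 0.43, FDR 0.00766, edgeR). Dst went from 819 to 311 CPM (log2 fold change -1.40, SE 0.21, FDR 0.00698, edgeR). The number called lower was 1 without basal TEB replicate 3, 2 without basal duct replicate 1, and 1 with no composition normalization. Over all genes, 59, 90 and 57 were called in either direction in these fits, against 230 in the main fit. Krt5 and Krt14 also belong to the 8 basal markers, of which 4 were called lower in basal TEB.

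Of the SNAIL genes, Snai2 (Entrez gene 20583, chromosome 16, 14705852 to 14709395) was high in every basal library. It had 46.4, 69.5 and 66.1 CPM in basal duct and 72.0, 61.5 and 69.7 CPM in basal TEB. The luminal duct libraries had 1.55 and 0.123 CPM, and the luminal TEB libraries had 0, 0.0762 and 0 CPM. The basal and luminal libraries did not overlap, and the log2 fold change was 6.08 (SE 0.82, FDR 2.27e-04, edgeR) in ducts and 11.15 (SE 0.93, FDR 4.13e-06, edgeR) in TEBs, where the luminal group held 4 counts in all. In basal cells TEB and duct libraries overlapped, with a log2 fold change of 0.16 (SE 0.54, 95% interval -1.02 to 1.33, FDR 0.938, edgeR).

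In luminal cells Snai2 was the only one of the 10 genes called between TEB and duct, against 1.41% of all genes. It fell by 4.91 on the log2 scale (SE 0.97, FDR 0.0331, edgeR), from 68 and 3 counts in the 2 luminal duct libraries to 0, 4 and 0 counts in luminal TEB. Without luminal duct replicate 1, which held the 68 counts, 1 library with 3 counts was left in the group, its spread was taken from the other groups, and the FDR was 0.354 (edgeR). Without luminal TEB replicate 2, which held the 4 counts, luminal TEB was left with 0 counts and the FDR was 0.0526 (edgeR). The call was made in 13 of 24 alternatives, with FDR values between 2.23e-06 and 0.354.

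All 8 basal markers also fell in luminal TEB compared with luminal duct, and their summed level was 101.3 and 301.6 CPM in luminal duct 1 and 3 and between 15.7 and 28.9 CPM in luminal TEB. Relative to the mean of the basal duct libraries, Snai2 in luminal duct 1 stood at 2.55%, above each of the 8 basal markers there (median 0.562%). In luminal duct 3 Snai2 stood at 0.203%, below each of the 8 markers (median 1.78%). Trp63 stood at 0.734% in luminal duct 1 and 0.0439% in luminal duct 3. Snai2 and Trp63 were thus higher in the luminal duct library with fewer basal marker counts. Id4 and Meox1 were higher in the other one. Id4 stood at 0.301% in luminal duct 1 and 0.849% in luminal duct 3, and Meox1 at 0 and 4.73%. The part of basal cells in these luminal values was not tested. The interaction, which asks whether the TEB to duct difference of Snai2 differed between basal and luminal cells, was 5.07 on the log2 scale (SE 1.13, FDR 0.0831, edgeR). None of the 10 genes was called for the interaction, against 0.443% of all genes, with 3 of the 10 at an unadjusted p below 0.05, beside 14.7% of all genes. DESeq2 and edgeR's likelihood ratio test each called 3 of the 10, and 653 and 629 of the 17370 genes, and limma voom called 0 of the 10 and 95 genes.

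Snai1 (Entrez gene 20613, chromosome 2, 167538195 to 167542814) was low throughout. It had 2.15, 4.92 and 3.51 CPM in basal duct, 0, 2.53 and 0.952 CPM in basal TEB, 0 in both luminal duct libraries, and 1.01, 0.495 and 0.925 CPM in luminal TEB. It was called higher in basal than in luminal cells of ducts (FDR 0.0227, edgeR), where the level over the basal libraries was at least 77.3-fold higher than the limit of 3 counts over the luminal duct libraries, a limit that covers counting error only. Without luminal duct replicate 1 the FDR was 0.0883 and without luminal duct replicate 3 it was 0.0773 (edgeR), each with 1 luminal duct library left whose spread was taken from the other groups, and the call was made in 20 of 25 alternatives. In TEBs the basal and luminal libraries overlapped (log2 fold change 0.53, SE 1.44, FDR 0.834, edgeR). Luminal TEB libraries all held Snai1 counts and luminal duct libraries none, with an FDR of 0.156 (edgeR), and 43.7% of all genes had luminal TEB and duct libraries that did not overlap.

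The 12 epithelial genes that SNAIL and ZEB factors are known to repress were lower in basal cells in most cases. In ducts 9 of the 12 were called lower and 0 higher, with a median log2 fold change of -2.51, and 9.71% of all genes were called lower in basal cells. In TEBs 10 of the 12 were called lower and 0 higher, with a median of -2.97, and 11.8% of all genes were called lower. Tight junction claudins led, with Cldn4 at 7.71 CPM in basal duct against 883 CPM in luminal duct and at 8.06 against 1191 CPM in TEBs. Epcam had log2 fold changes of -2.39 (SE 0.18) in ducts and -2.19 (SE 0.17) in TEBs. Cdh1 had -1.49 (SE 0.23) and -2.42 (SE 0.22), and since the cells were sorted on a Cdh1 reporter, that gene's difference was used in the sort. Between TEB and duct 0 of the 12 were called in basal or in luminal cells by edgeR.

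**Figure D2:**
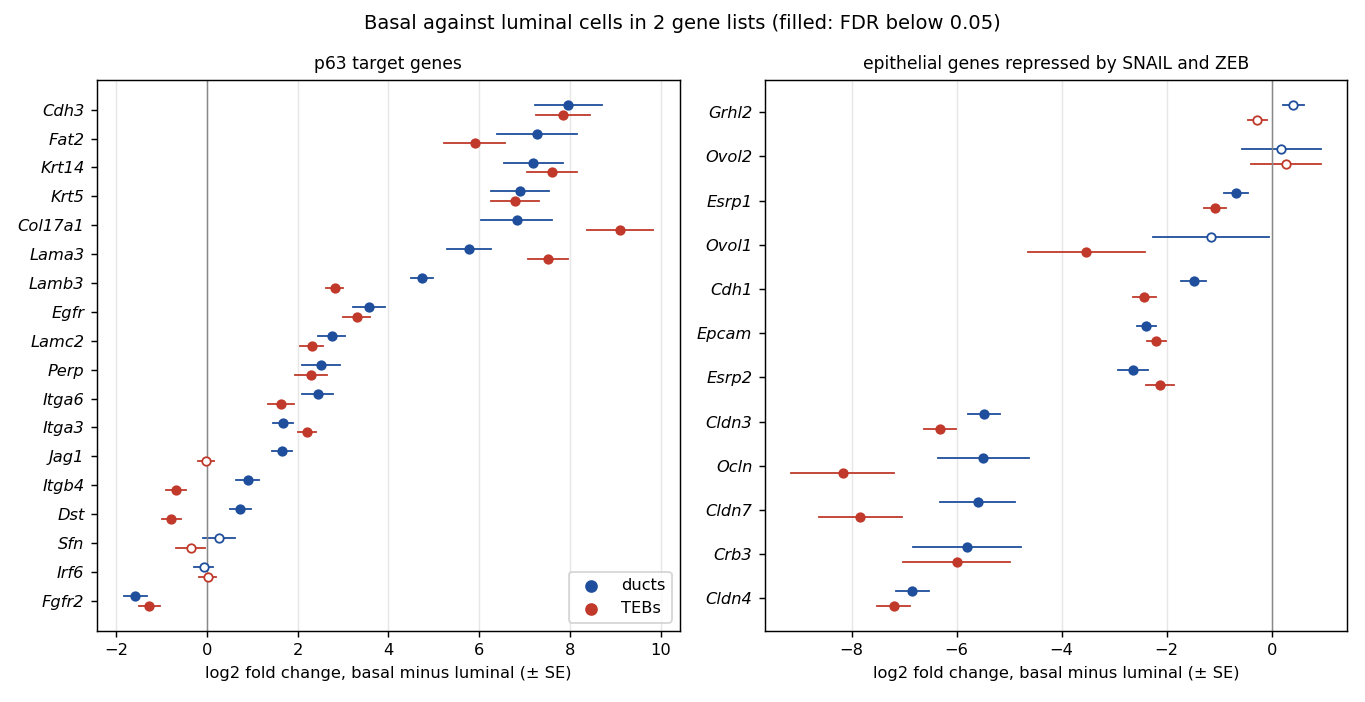
Log2 fold change of basal minus luminal cells with its SE (x axis) for the 18 p63 target genes and the 12 epithelial genes (y axis), in ducts and in TEBs, with filled points for genes called at an FDR below 0.05. Most p63 targets lie to the right of 0 and Fgfr2 to the left in both structures, while the claudins Cldn3, Cldn4 and Cldn7 lie furthest to the left together with Ocln and Crb3.

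The ZEB genes did not follow the basal and luminal labels. Zeb1 (Entrez gene 21417, chromosome 18, 5591327 to 5775468) had 0.0200, 11.6 and 1.92 CPM in basal duct, 0, 1.77 and 2.88 CPM in basal TEB, 0 and 11.6 CPM in luminal duct, and 0, 0.210 and 0.347 CPM in luminal TEB. Zeb2 (Entrez gene 24136, chromosome 2, 44983512 to 45117442) had 0, 6.26 and 1.98 CPM in basal duct, 1.04, 2.65 and 0.644 CPM in basal TEB, 0.0228 and 3.37 CPM in luminal duct, and 0, 0.705 and 0.713 CPM in luminal TEB. Both genes were highest in basal duct 2 and luminal duct 3, and in every comparison their groups overlapped. No comparison of either gene was called, with FDR values between 0.366 and 0.940 for Zeb1 and between 0.627 and 0.939 for Zeb2 (edgeR).

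Those 2 libraries also stood apart in immune and adipocyte markers, and only in part in markers of other cell types. The summed level of 6 immune markers was 125.4 CPM in basal duct 2 and 176.2 CPM in luminal duct 3, and between 5.8 and 41.1 CPM in the other libraries. Ptprc, the leukocyte antigen CD45, had 644 counts in each of the 2 libraries and at most 54 in any other. The adipocyte and endothelial gene Fabp4 had 6791 counts in basal duct 2 and 1826 in luminal duct 3, against 1074 or fewer elsewhere. The 5 endothelial markers summed to 188.9 CPM in basal duct 2, 38.3 CPM in basal TEB 2 and 26.2 CPM in luminal duct 3, and to between 1.0 and 15.9 CPM in the others. The 4 adipocyte markers summed to 184.0 and 75.1 CPM in the 2 libraries, and to at most 23.6 CPM in the others. Fabp4 alone gave 178.7 and 75.1 CPM of the former. Of the 4, 2 were detected in basal duct 2 and 1 in luminal duct 3, against all 4 in basal TEB 2 and 3. Pericyte markers summed to 54.6 CPM in basal duct 2, the highest basal library, and 179.9 CPM in luminal duct 3, the lowest luminal one. Notch3 made most of the luminal sums, with means of 173 CPM in luminal duct and 264 CPM in luminal TEB. Rgs5 and Pdgfrb had means of 2.98 and 4.05 CPM in luminal duct, against 0.577 and 0.545 CPM in luminal TEB. Cspg4 had 0 and 0.0929 CPM. Luminal duct 3 held counts of 3 of the 4 pericyte genes and luminal duct 1 of 1. Schwann cell markers summed to 175.9 CPM in basal duct 2, the lowest basal library, and 93.8 CPM in luminal duct 3, the highest luminal one. Sox10 made most of the basal sums, with a mean of 236 CPM in basal duct. The 8 fibroblast markers summed to 902.4 CPM in basal duct 2 and 258.7 CPM in luminal duct 3, the highest of the basal and of the luminal libraries, with ranges of 442.1 to 656.1 CPM and 6.4 to 55.0 CPM in the others. The sort kept Lin- cells, a gate that removes cells with CD45 (Ptprc) or CD31 (Pecam1) on their surface, and Pecam1 had 2775 counts in basal duct 2 and 317 in luminal duct 3. The part of such cells in the Zeb1 and Zeb2 counts was not tested.

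**Figure D3:**
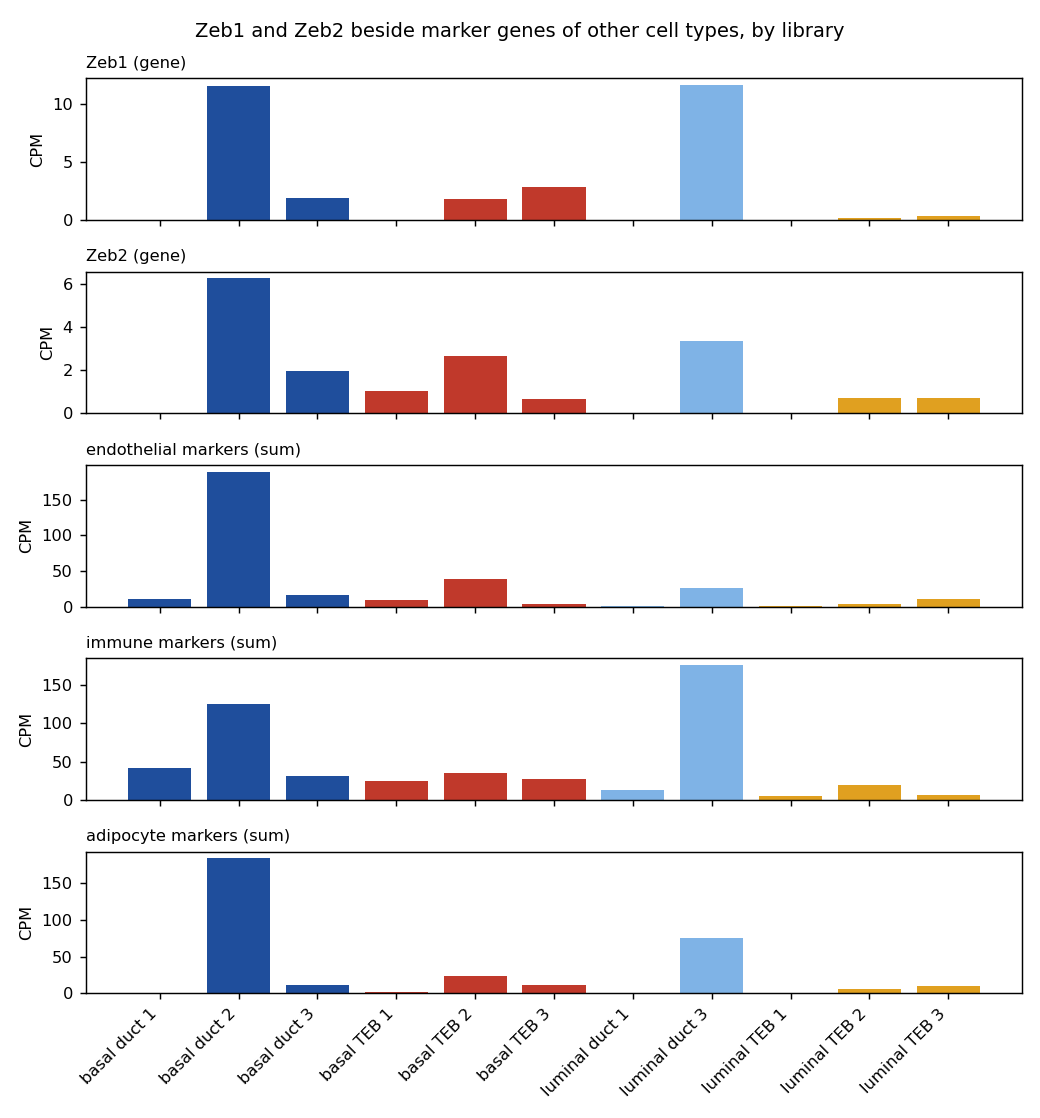
CPM of Zeb1 and Zeb2 and summed CPM of the endothelial, immune and adipocyte markers (y axes, each from 0) in the 11 libraries (x axis), with bars coloured by group. Basal duct 2 and luminal duct 3 have the tallest bars for Zeb1, Zeb2, immune and adipocyte markers, whereas for endothelial markers basal TEB 2 (38.3 CPM) stands above luminal duct 3 (26.2 CPM).

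Without these 2 libraries, which were left out after their Zeb1 and Ptprc counts had been seen, Zeb1 and Zeb2 were again not called in any comparison. That fit left 1 luminal duct library, whose spread was taken from the other groups. The number of the 10 genes called was then 4 in ducts, 5 in TEBs, 1 in luminal and 0 in basal cells between TEB and duct, and 1 for the interaction. Snai1 was not called in ducts in that fit (FDR 0.109, edgeR).

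Twist1 (Entrez gene 22160, chromosome 12, 33957671 to 33959831) had 1.66, 0.658 and 2.10 CPM in basal duct and 3.46, 1.07 and 0.588 CPM in basal TEB, and a count in 1 of the 5 luminal libraries. Its basal libraries lay above the luminal ones in both structures, but the FDR was 0.0551 in ducts and 0.0849 in TEBs (edgeR). Twist2 (Entrez gene 13345, chromosome 1, 91801461 to 91848034) had 34 counts over the basal duct, 59 over the basal TEB, 0 over the luminal duct and 8 over the luminal TEB libraries, and no comparison was called. Of the 3174 exon bases of Twist2 in the GENCODE annotation, 46.5% are also exon of an antisense gene, Gm29100. The library kit does not mark strand, so reads from the 2 genes cannot be told apart there. The corresponding share was 4.44% for Id4, 3.30% for Zeb2 and 1.93% for Zeb1, and 0 for the other 6 genes. Reads were counted on the Rsubread annotation, with 1312 bases for Twist2 and 1660 for Id4. The overlapped share of those bases was not computed.

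Mesenchymal effector genes were described beside these factors. In ducts 4 of the 8 were called higher in basal cells, against 12.6% of all genes. In TEBs 5 of the 8 were, against 13.2%. None was called lower in either, against 9.71% and 11.8% of all genes. Sparc, a matrix glycoprotein, had log2 fold changes of 7.04 (SE 0.78) in ducts and 7.65 (SE 0.66) in TEBs. Vim, the intermediate filament vimentin, had 3.68 (SE 0.72) and 5.49 (SE 0.66), and the collagenase gene Mmp2 had 5.18 (SE 1.03) and 5.80 (SE 0.90). Of 6 other mesenchymal transcription factors that passed the filter, Osr1 and Prrx1 were called higher in basal cells in both structures. The shares of all genes called higher were again 12.6% and 13.2%. Osr1 was at 57.0 CPM in basal duct and 44.5 CPM in basal TEB. The fibroblast markers summed to between 442.1 and 902.4 CPM in basal libraries, and their part in these values was not tested.

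Id4 (Entrez gene 15904, chromosome 13, 48261116 to 48266028) was steady across basal libraries. It had 331, 275 and 324 CPM in basal duct and 266, 360 and 341 CPM in basal TEB. Luminal libraries had 0.933 and 2.63 CPM in ducts and 1.35, 1.31 and 0.424 CPM in TEBs. The basal and luminal libraries were far apart, with a log2 fold change of 7.49 (SE 0.59, FDR 5.62e-06, edgeR) in ducts and 8.29 (SE 0.50, FDR 4.89e-07, edgeR) in TEBs. Between basal TEB and basal duct the log2 fold change was 0.06 (SE 0.36, 95% interval -0.73 to 0.84, FDR 0.977, edgeR), the narrowest interval of the 10 genes in that comparison.

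Among the other ID genes, Id3 was lower in basal cells, with a log2 fold change of -1.36 (SE 0.41, FDR 0.0307, edgeR) in ducts and -3.11 (SE 0.40, FDR 1.13e-04, edgeR) in TEBs. Id2 was higher in basal cells in both structures, with 1.57 (SE 0.46) and 1.60 (SE 0.40) on the log2 scale. Id1 was higher in basal cells of ducts (log2 fold change 2.30, SE 0.73, FDR 0.0420, edgeR). Of the E proteins, the partners that ID proteins bind, Tcf4 was higher in basal cells in both structures (0.77, SE 0.20, and 1.03, SE 0.18, on the log2 scale), and Tcf12 was lower in basal cells of TEBs. None of these 6 genes was called between TEB and duct in basal or in luminal cells.

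Meox1 (Entrez gene 17285, chromosome 11, 101877510 to 101894354) had 31.3, 23.2 and 52.4 CPM in basal duct and 86.9, 87.9 and 116 CPM in basal TEB. Among luminal libraries it had 0 and 1.69 CPM in ducts and 0, 0 and 0.0193 CPM in TEBs, the last being 1 count. Basal cells were higher in ducts (log2 fold change 5.53, SE 1.07, FDR 0.00272, edgeR), with all 41 luminal duct counts in 1 library, luminal duct 3. The call was made in all 25 alternatives, although those without luminal duct replicate 1 or 3 left 1 luminal duct library, whose spread was taken from the other groups. In TEBs the FDR was 2.14e-05 (edgeR), and no fold is given against a luminal group with 1 count.

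All 3 basal TEB libraries had more Meox1 than all 3 basal duct libraries, with means of 97.0 ± 16.6 CPM and 35.6 ± 15.1 CPM (SD, n = 3). The log2 fold change was 1.44 (SE 0.72, 95% interval -0.13 to 3.01) and was not called (FDR 0.385, edgeR). Limma voom called it (FDR 0.0109), as did edgeR without luminal duct replicate 1 (FDR 0.0445) or 3 (FDR 0.0436), and 22 of 25 alternatives did not.

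Dmrta1 (Entrez gene 242523, chromosome 4, 89688198 to 89694766) was the other gene with all basal TEB libraries above all basal duct libraries. In RPKM it had 0.496, 0.936 and 1.14 in basal TEB, and 0, 0 and 0.126 in basal duct. Luminal libraries held 4 counts of it in all, in luminal TEB 1. The log2 fold change between basal TEB and basal duct was 4.34 (SE 2.27, 95% interval -0.67 to 9.34) and was not called by edgeR. Between basal and luminal cells of TEBs it was 6.76 (SE 2.55, FDR 0.0792, edgeR), with a call in 5 of 24 alternatives.

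In the comparison of TEB with duct in basal cells, edgeR's quasi-likelihood test thus called 0 of the 10 genes, and 0 had an unadjusted p below 0.05, beside 14.5% of all genes. DESeq2 and the likelihood ratio test also called 0, and limma voom called 2, Meox1 and Dmrta1. Over all 17370 genes these methods called 802, 707 and 601, against 230 in the main fit. The members' median log2 fold change was 0.11, beside -0.03 over all genes. In 3 of the 10 the groups did not overlap, 2 higher and 1 lower in TEBs, beside 20.8% of all genes.

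**Figure D4:**
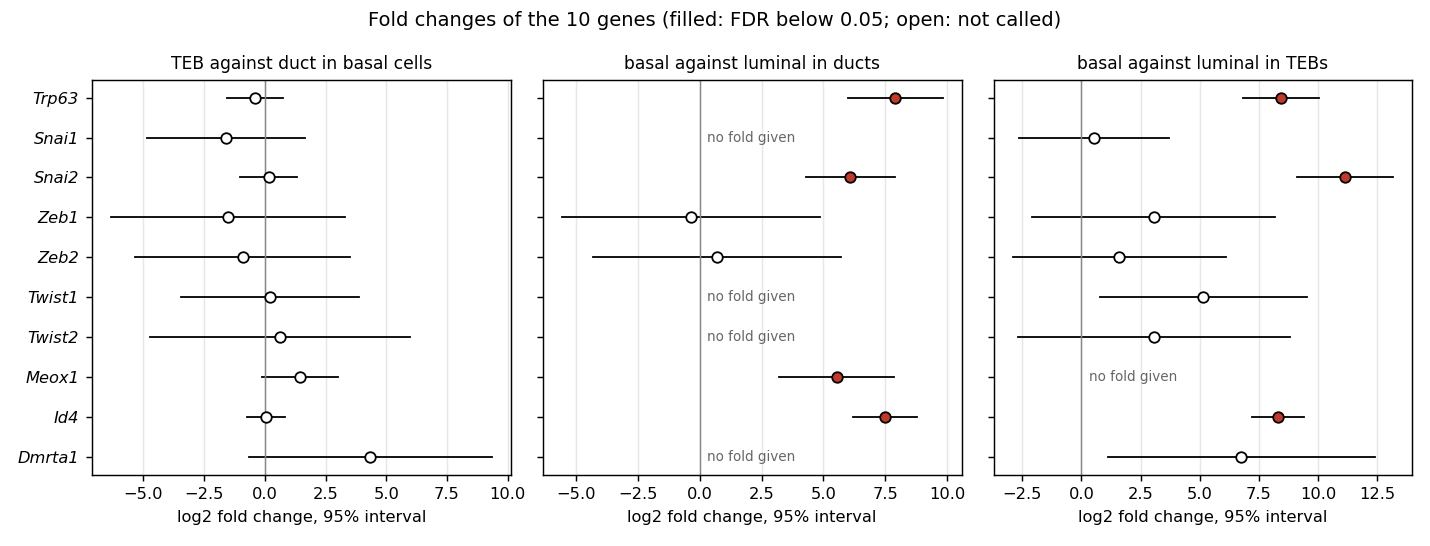
Log2 fold change with its 95% interval (x axis) of the 10 genes (y axis) in 3 comparisons, where filled points passed an FDR of 0.05, open points did not, and "no fold given" marks a group with at most 3 counts. The intervals between TEB and duct in basal cells all include 0, and those of Trp63, Snai2 and Id4 between basal and luminal cells lie far above 0 in ducts and in TEBs.

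Close relatives of these genes gave a mixed picture. Trp73, another gene of the p53 family, was called higher in basal cells in ducts and in TEBs. In ducts the log2 fold change was 5.46 (FDR 0.0207, edgeR), with means of 11.1 CPM in basal and 0.239 CPM in luminal cells. In TEBs the FDR was 0.00209 (edgeR), with means of 3.84 CPM in basal and 0.0203 CPM in luminal cells. No fold is given there, since the luminal TEB group held almost no counts. Trp53 was at 105 CPM in basal duct and 74.8 CPM in luminal duct and was not called in any comparison. Snai3 had means of 7.33 CPM in basal TEB and 0.248 CPM in basal duct, with an FDR of 0.286 (edgeR). Meox2, the relative of Meox1, had 287 counts in basal duct 2 and 260 in luminal duct 3, the libraries highest in Zeb1, against at most 83 in the others.

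The genes most like each abundant member were named by Pearson's r of log2 CPM over the 11 libraries, as a description of libraries that share their cell type. For Trp63 these were Tgfbr3 (0.997), Adamts7 (0.997) and Pdk4 (0.997), among 10677 genes compared. For Snai2 they were Bambi (0.991), Itga8 (0.989) and Rasl11b (0.989). For Meox1 they were Serpinf1 (0.995), Gm3373 (0.995) and Ccnd2 (0.994), and for Id4 they included Col16a1 (0.996) and Col4a1 (0.995).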

How the data were processed

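Total RNA from sorted cells was made into libraries with the TruSeq RNA v2 kit, and 80 bp paired-end reads were aligned by the authors to mm10 and counted per Entrez gene with Rsubread and its inbuilt annotation. The deposited values are these raw counts, with no normalization, and the submitters' notes name featureCounts. The authors left out 1 luminal duct sample that had too few cells.

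Analysis used R 4.3.3 and edgeR 4.0.16. Genes were filtered with filterByExpr (17370 kept), scaled by TMM and fitted in 1 quasi-likelihood model over 4 groups. The SE was taken as the log2 fold change over the root of the F statistic, and adjusted p-values are Benjamini-Hochberg over all genes tested. A fold is given where each group holds more than 3 counts. The 10 genes and the gene lists, from general knowledge, were chosen with earlier results of these data known. All 10 genes are described, and up to 3 genes per list, by smallest FDR, with others named where a count needed them. Likeness was computed where the mean log2 CPM (prior count 2) reached 1 for a member and 2 for other genes. A gene that the likeness rule named is not reported here. Alternatives included DESeq2 1.42.0 and limma 3.58.1, and scripts were tested on simulated data. Library totals of 27989137 to 49221436 limit precision for genes at few counts.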

Additional observations from a re-analysis of the deposited data

How the results depend on the processing

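Of 50 values (10 genes in 5 comparisons), 15 were given as an FDR only. Of the other 35, which have a sign, 17 changed it under at least 1 alternative, and none of these had been called. Trp63, Snai2, Meox1 and Id4 were called between basal and luminal cells, in ducts and in TEBs, in 25 of 25 alternatives.

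The count of genes called in luminal cells between TEB and duct was 1, and became 0 with no composition normalization, limma voom, only the groups compared, the replicate block or an FDR of 0.01, 2 with no filter, and 3 with the likelihood ratio test or DESeq2. It ranged from 0 to 2 with a library left out. In basal cells it was 0, and became 2 with limma voom and 0 to 1 with a library left out. For the interaction it was 0, and became 2 with no filter, 3 with the likelihood ratio test or DESeq2, 1 without basal TEB 1 and luminal duct 3, 1 without basal duct 2 and luminal duct 3, and 0 to 1 with a library left out. These last 2 pairs, and removal of mitochondrial genes, were chosen after seeing the data. Calls over all genes moved too. In luminal cells they were 245 in the main fit, 10 with no composition normalization and 23 at an FDR of 0.01. There were 125 with the replicate block, 351 with limma voom, 357 with no filter and 603 with only the groups compared. The likelihood ratio test called 1006 and DESeq2 1194. For the interaction, 77 were called in the main fit and 141 with no filter.

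The values that changed sign are fitted log2 differences. They are no folds for Zeb1 and Zeb2 in luminal cells, in ducts and for the interaction wherever luminal duct 3 was left out, since the 1 luminal duct library left held 0 counts of Zeb1 and 1 of Zeb2 and its spread was taken from the other groups. Nor is that of Twist2 without basal duct replicate 3, which left 1 count in basal duct. With no composition normalization, which moved the median of all genes between basal TEB and duct from -0.03 to -0.16 and in luminal cells from 0.04 to 0.42, the basal TEB to duct values were -0.0052 for Snai2, -0.19 for Twist1 and -0.054 for Id4. With limma voom they were 1.53 for Zeb2 and -0.19 for Twist1, and Zeb1 was at 1.34 between basal and luminal cells in ducts, Snai1 at -0.69 in TEBs and Trp63 at -0.26 for the interaction. With the replicate block, Zeb2 was at 2.29 between basal TEB and duct and -0.029 between basal and luminal cells in ducts, and Snai1 at -0.23 in TEBs. Without basal TEB 1 and luminal duct 3, Twist1 was at -0.82 in basal cells, Zeb1, Zeb2 and Id4 at 6.09, 4.24 and 0.15 in luminal cells, Zeb1 at 10.65 in ducts, and Zeb1 and Zeb2 at -7.03 and -4.95 for the interaction. Without basal duct 2 and luminal duct 3, Zeb1, Zeb2, Twist1 and Id4 were at 0.68, 0.56, -0.14 and -0.021 in basal cells, Zeb1, Zeb2 and Id4 at 6.01, 4.23 and 0.15 in luminal cells, Zeb1 at 8.37 in ducts, and Zeb1, Zeb2 and Id4 at -5.33, -3.67 and -0.17 for the interaction.

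With each library left out in turn, the range between TEB and duct in basal cells was -0.034 to 0.27 for Snai2, -2.32 to 0.68 for Zeb1, -1.76 to 0.55 for Zeb2, -0.82 to 0.62 for Twist1, -0.66 to 4.85 for Twist2 and -0.077 to 0.18 for Id4. In luminal cells it was -1.73 to 2.32 for Trp63, -5.94 to 5.99 for Zeb1, -2.82 to 4.21 for Zeb2 and -1.36 to 0.13 for Id4. Between basal and luminal cells it was -2.58 to 10.57 for Zeb1 and -0.78 to 6.74 for Zeb2 in ducts and -0.75 to 1.10 for Snai1 in TEBs. For the interaction it was -2.71 to 1.33 for Trp63, -7.52 to 5.62 for Zeb1, -5.13 to 2.39 for Zeb2 and -0.076 to 1.41 for Id4. As above, fits without luminal duct 3 give no folds for Zeb1 and Zeb2 in luminal cells, in ducts and for the interaction. The fit without basal duct 3 gives none for Twist2 in basal cells. Except where a library or a scaling was removed, the cause was not tested.

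Same-numbered libraries deviated together only weakly, with correlations from -0.07 to 0.16. Differently numbered libraries were not compared, so these values cannot show whether the numbers pair libraries. The labels do not say, and the main model took no pairing. With the replicate block, 4 genes were called in ducts in place of 5, 4 in TEBs, and 0 in the other comparisons. Over all genes, 3293 were then called in ducts in place of 3878, and 4030 in TEBs in place of 4354. With a prior count of 0.25, 30 of 40 mean log2 CPM levels moved by less than 1 SD, and 0 of the other 10 had over 100 counts. No sign or call can be read for genes at a few counts.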
